A study of Rattus norvegicus with 6 samples.

Results

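The phase II conjugation enzymes of rat liver were examined as 46 genes, out of 7126 genes that could be named on the array. Members were all genes whose symbol places them among the glutathione S-transferases (Gst and Mgst), UDP-glucuronosyltransferases (Ugt), sulfotransferases (Sult), N-acetyltransferases (Nat) or epoxide hydrolases (Ephx). Each of the 46 had 1 row on the array, and the rule used no measured value. The families comprised 17 cytosolic and kappa Gst genes, 1 Mgst gene, 6 Ugt1 genes, 5 Ugt2 genes, 10 Sult genes (6 Sult1, 3 Sult2 and Sult4a1), 5 Nat genes and 2 Ephx genes. The other family symbols of the rat annotation were not matched to a row and were not analysed here.

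The livers came from male Sprague-Dawley rats, labelled as aged 90 and 120 days, in uncontrolled hemorrhagic shock after tail amputation, and were taken at 330 min. Rats of the limited group received Ringer's salt solution right after amputation to keep mean arterial pressure at 50 to 60 mmHg. Rats of the aggressive group received the same fluid with a target of over 80 mmHg. Each regimen had 6 rats, and RNA of 3 livers of each was run on 1-colour NimbleGen arrays. Both groups were bled and infused, and the unbled rats of the study were not analysed here, so each value compares one regimen with the other.

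Conjugation enzymes make reactive or fat-soluble compounds easier to excrete by attaching a polar group. Glutathione S-transferases attach glutathione, UDP-glucuronosyltransferases attach glucuronic acid from UDP-glucuronate, sulfotransferases attach sulfate from the donor PAPS, and N-acetyltransferases attach an acetyl group. Epoxide hydrolases add water to epoxides, which are often products of cytochrome P450 enzymes. The liver is rich in most of these enzymes, which act on bilirubin, bile acids, steroid and thyroid hormones and many drugs.

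The promoters of 4 members are shown because these genes carry the contrasts described below. Ugt2b and Sult2a6 were the higher members with the smallest p values, and Ugt1a6 and Ugt1a1, whose first exons lie in one locus and join the same downstream exons, had differences of opposite sign. The sequences are those of RefSeq on the GRCr8 assembly, from 250 bases before to 50 bases after the annotated start, at chr14:20985199-20985498 on the plus strand (Ugt2b), chr1:84097759-84098058 on the minus strand (Sult2a6), chr9:96194768-96195067 on the plus strand (Ugt1a6) and chr9:96248893-96249192 on the plus strand (Ugt1a1). Capitals mark matches on either strand to 5 short motifs: the aryl hydrocarbon receptor core GCGTG, the antioxidant response element core TGACNNNGC, an HNF1 core GTTAAT, a C/EBP site TTNNGCAA and a TATA box TATAAA.
Ugt2b: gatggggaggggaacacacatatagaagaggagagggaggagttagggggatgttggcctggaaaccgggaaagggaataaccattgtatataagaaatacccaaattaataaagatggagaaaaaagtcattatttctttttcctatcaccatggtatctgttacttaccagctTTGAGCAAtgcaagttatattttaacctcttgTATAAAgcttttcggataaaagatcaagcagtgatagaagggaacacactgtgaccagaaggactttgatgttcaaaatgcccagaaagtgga
Sult2a6: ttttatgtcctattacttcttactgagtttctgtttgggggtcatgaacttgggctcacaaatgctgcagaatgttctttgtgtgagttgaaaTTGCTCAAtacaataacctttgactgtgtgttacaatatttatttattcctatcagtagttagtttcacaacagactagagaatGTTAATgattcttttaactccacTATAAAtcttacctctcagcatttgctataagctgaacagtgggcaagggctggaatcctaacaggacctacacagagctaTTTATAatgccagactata
Ugt1a6: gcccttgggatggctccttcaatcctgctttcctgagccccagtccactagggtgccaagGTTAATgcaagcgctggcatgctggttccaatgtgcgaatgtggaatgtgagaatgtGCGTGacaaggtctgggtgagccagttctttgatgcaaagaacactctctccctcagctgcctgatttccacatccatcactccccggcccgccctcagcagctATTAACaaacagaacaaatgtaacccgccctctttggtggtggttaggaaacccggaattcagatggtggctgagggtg
Ugt1a1: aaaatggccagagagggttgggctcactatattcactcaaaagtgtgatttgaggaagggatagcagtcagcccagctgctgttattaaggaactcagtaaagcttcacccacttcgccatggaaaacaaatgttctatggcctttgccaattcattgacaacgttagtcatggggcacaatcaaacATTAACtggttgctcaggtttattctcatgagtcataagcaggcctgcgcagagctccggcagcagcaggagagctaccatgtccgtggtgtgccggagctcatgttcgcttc

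Of the 39 members with a RefSeq promoter, 13 (33.3%) held the C/EBP letters, against 10.6% of all 33469 promoters, and 8 (20.5%) held the HNF1 core, against 7.45%. The C/EBP letters were in 5 of 5 Ugt2 members and the HNF1 core in 4 of 5 Ugt1 members with a promoter. The Ugt2 genes are close paralogs, so their matches are not independent, and their log2 differences ranged from -0.35 to 0.91. The antioxidant response element core was found in 8 members (20.5%), against 12.1% of all promoters, and the aryl hydrocarbon receptor core in 9 (23.1%), against 29.7%. The TATA box was found in 11 members (28.2%), against 14.2% of all promoters. Ugt1a6 held the aryl hydrocarbon receptor core and the HNF1 core in both orientations, whereas Ugt1a1 held 1 HNF1 core and none of the other motifs. Members were counted by the first promoter of each gene, whereas the background counts every full-length promoter. The matches describe letters in these windows and do not mark a bound site. Whether a match goes with a member's difference was not tested.

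Hepatocyte transcripts dominated all 6 arrays. The summed intensity of 15 measured hepatocyte markers was 543346 to 570939 in the limited and 556159 to 588958 in the aggressive arrays. Aggressive arrays 1 and 3 also carried lung transcripts. The summed intensity of 16 lung genes was 3086 to 3985 in the limited arrays, and 8028, 3941 and 11602 in aggressive arrays 1, 2 and 3. For that reason differences are also given against aggressive array 2 alone, which is 1 rat, where they bear on a result. The summed intensity of 10 markers of Kupffer cells and macrophages was 46410 to 53733 in the limited and 30535 to 36881 in the aggressive arrays. Their log2 differences (limited minus aggressive) ranged from 0.08 (Vsig4) to 1.13 (Adgre1), and the groups overlapped for C1qc, Cd68, Vsig4 and Lyz2. In whole liver, fewer cells of a type and less RNA per cell cannot be told apart.

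The difference between the regimens was small for most conjugation enzymes and reached 2-fold for 0 of the 46. It was higher under limited resuscitation for 26 members and lower for 20, with a median log2 difference (limited minus aggressive) of 0.08, against 0.0118 over all 19345 rows. After limma's moderated test with Benjamini-Hochberg adjustment over all rows, 0 members passed at 0.05, against a background of 0.114% of rows, and the smallest adjusted p of a member was 0.196. At an unadjusted p under 0.05 there were 6 higher and 4 lower members. Those 10 make 21.7% of the members, against 13.1% of all rows and 14.8% of the named genes. The background was 6.86% of rows (7.73% of the named genes) for higher and 6.19% of rows (7.04% of the named genes) for lower values. Limited and aggressive arrays were fully separated for 14 members (30.4%), against 19.8% of all rows and 23.1% of the named genes. Of these, 9 were higher, against 10.0% of all rows, and 5 lower, against 9.76%.

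The counts depended on single arrays. The higher members numbered 3 in place of 6 without limited array 2, against 5.77% of all rows in that setting, and 3 without aggressive array 2, against 6.14%. The lower members numbered 2 in place of 4 without limited array 1, aggressive array 1 or aggressive array 2, against 4.66%, 5.29% and 5.79% of all rows. Against aggressive array 2 alone, 5 higher and 2 lower members had an unadjusted p under 0.05, against 4.15% of all rows higher and 4.03% lower, the single aggressive array being given the spread of the limited group. All 10 members kept their direction there, which was fixed in advance because their groups did not overlap. Of the 46, 43 kept their direction, and aggressive array 2 is itself part of the main difference.

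**Figure D1:**
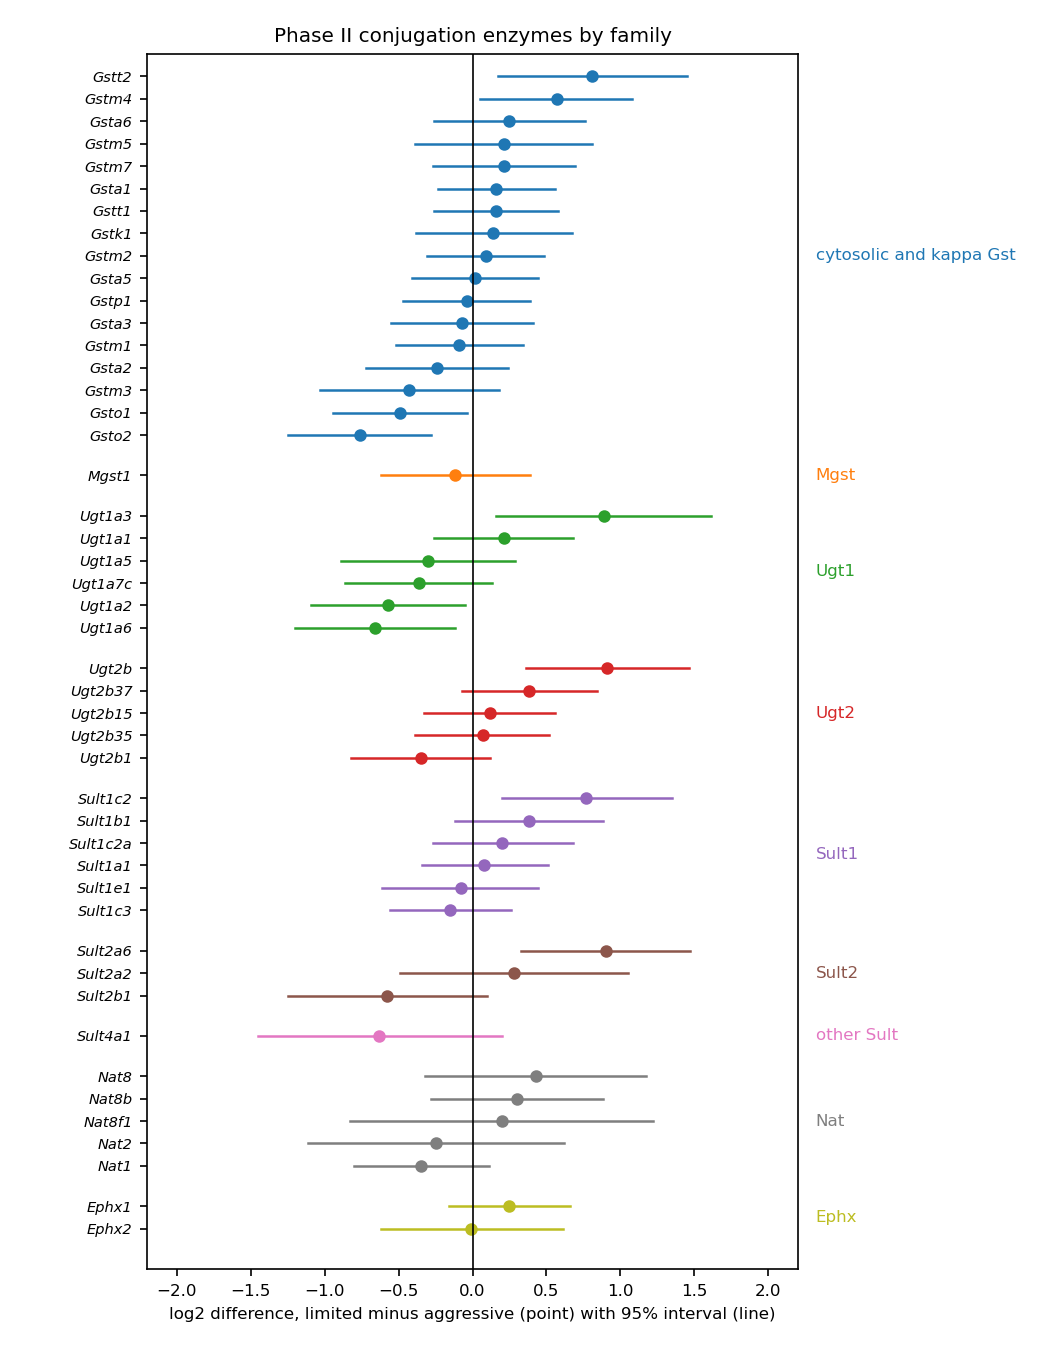
Log2 difference (limited minus aggressive, x axis) of each of the 46 genes with its 95% interval from limma, grouped by family and ordered by difference within the family. The largest differences in either direction are those of Ugt2b at 0.91 and Gsto2 at -0.76, and most intervals include 0.

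Among the UDP-glucuronosyltransferases, Ugt2b stood apart from the other Ugt2 genes. It encodes a rat enzyme that glucuronidates steroids. Its intensity was 16235, 13798 and 15493 in the limited arrays, against 8545, 10063 and 6093 in the aggressive arrays. Every limited array lay above every aggressive array, and the group means were 15175 ± 1249 and 8234 ± 2003 (SD, n = 3 each), a 1.88-fold higher mean level on the log2 scale under limited resuscitation. The log2 difference was 0.91 (95% interval 0.36 to 1.46), and it did not pass over all rows (adjusted p = 0.196, limma). With an intensity trend and a robust prior in the same test the adjusted p was 0.000795, and without dim rows it was 0.0156, within a range of 0.000795 to 0.686 over the 14 alternatives. The trend setting called 2.95% of rows and the setting without dim rows called 4.99%. Against aggressive array 2 alone the difference was 0.59.

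The other Ugt2 genes differed less. Ugt2b37 measured 8002, 8637 and 9124 in the limited arrays and 7392, 5535 and 6957 in the aggressive arrays, without overlap, for a log2 difference of 0.38 (95% interval -0.07 to 0.84). Its difference against aggressive array 2 alone was 0.63, where Ugt2b had 0.59. Ugt2b15 and Ugt2b35 differed by 0.12 and 0.07, and their groups overlapped. Ugt2b1, which glucuronidates steroids and drugs, had 761, 757 and 1034 in the limited arrays and 1019, 1093 and 1115 in the aggressive arrays, a log2 difference of -0.35 (95% interval -0.82 to 0.12). The Ugt2 median was 0.12, with 4 of 5 members above 0. The Ugt2b genes are close paralogs in one cluster, and whether probes of one row also bind transcripts of another is not stated in the files.

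The ratio of the Ugt2b to the Ugt2b15 signal within each array, on the log2 scale and centred over the 6 arrays, was 0.32, 0.41 and 0.46 in the limited arrays and -0.46, -0.07 and -0.66 in the aggressive arrays. The 2 rows therefore differed unequally between the regimens. This pair was chosen after its values were seen, so no test is given.

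The Ugt1 genes went in both directions. Ugt1a6, which glucuronidates simple phenols and is a known target of the aryl hydrocarbon receptor, measured 3537, 3193 and 2721 in the limited arrays, against 4046, 6314 and 4773 in the aggressive arrays. The groups did not overlap, and aggressive array 2, whose lung signal lay in the range of the limited arrays, was the highest. The log2 difference was -0.66 (95% interval -1.20 to -0.12, adjusted p = 0.304, limma) and was -1.01 against aggressive array 2 alone. With the intensity trend and robust prior its adjusted p was 0.0275, in a range of 0.0275 to 0.535 over the alternatives.

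Ugt1a2, another first-exon form of the locus, measured 240, 332 and 279 in the limited arrays and 417, 350 and 501 in the aggressive arrays. Its log2 difference was -0.57 (95% interval -1.09 to -0.05, adjusted p = 0.349, limma), and the nearest arrays of the groups were limited array 2 and aggressive array 2. Against aggressive array 2 alone the difference was -0.31, with an unadjusted p of 0.366 in limma. Ugt1a7c differed by -0.36 and Ugt1a5 by -0.30, both with overlapping groups.

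Ugt1a1, the enzyme that conjugates bilirubin, was among the brightest rows and differed by 0.21 on the log2 scale (95% interval -0.26 to 0.68). Its values were 25387, 20917 and 23943 in the limited arrays and 22042, 16850 and 22168 in the aggressive arrays, which overlapped. Ugt1a3 was dim, at 72.2, 58.4 and 43.1 in the limited arrays and 42.1, 21.7 and 31.5 in the aggressive arrays, and the gap between the groups was 43.1 against 42.1. Its log2 difference was 0.89 (95% interval 0.16 to 1.61, adjusted p = 0.304, limma), and 1.39 against aggressive array 2 alone. The Ugt1 median was -0.33, with 4 of 6 members below 0.

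The ratio of the Ugt1a6 to the Ugt1a1 signal, centred as above, was -0.38, -0.25 and -0.68 in the limited arrays and 0.02, 1.05 and 0.25 in the aggressive arrays, a difference of -0.87. These values were again chosen after they were seen. The first-exon forms of the locus share downstream exons, and which exons the probes of each row target is not stated in the files.

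**Figure D2:**
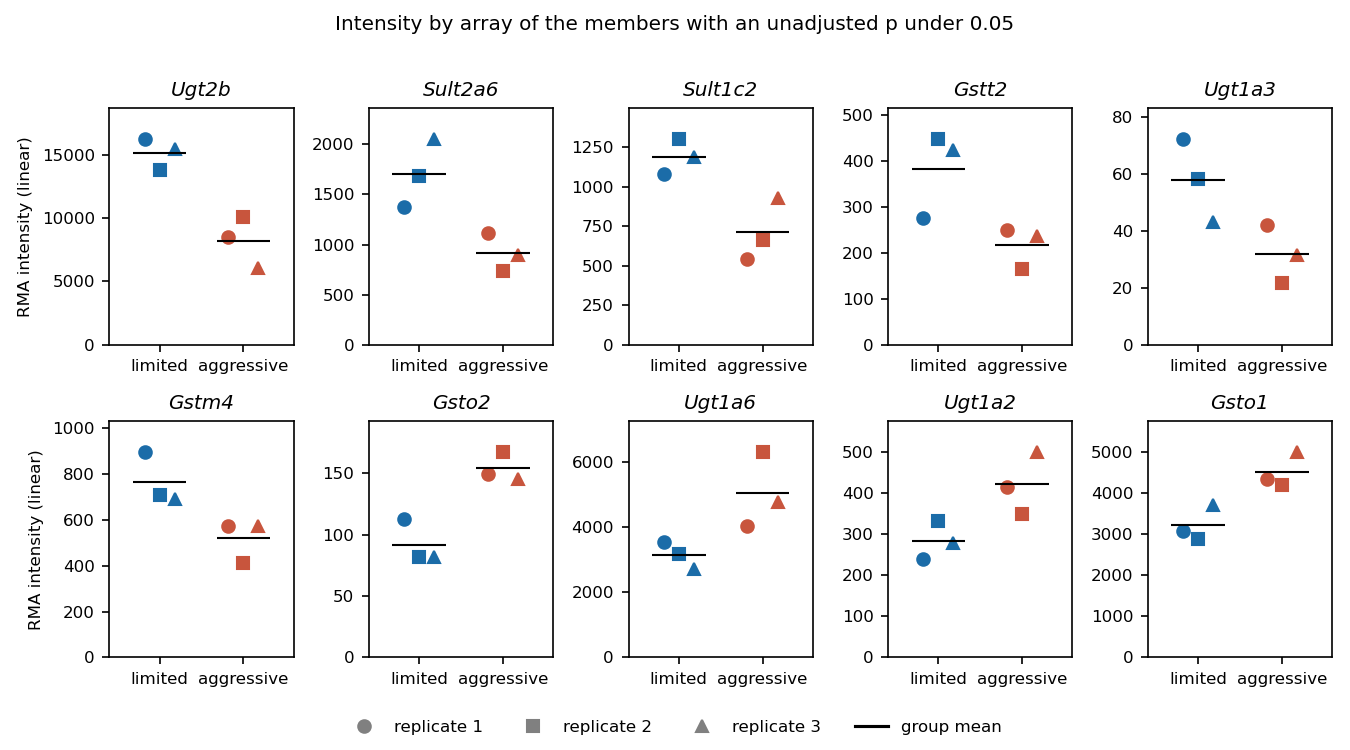
RMA intensity (linear y axis from 0) by array of the 10 members with an unadjusted p under 0.05, with limited arrays in blue on the left, aggressive arrays in red on the right, a marker shape per replicate number and a line at each group mean. The groups do not overlap in any of the 10 panels, and the gap is narrowest for Ugt1a3, at 43.1 against 42.1.

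Among the sulfotransferases, the higher values belonged to Sult2a6 and Sult1c2. Sult2a6, a sulfotransferase of bile acids and hydroxysteroids, measured 1375, 1686 and 2051 in the limited arrays, against 1117, 736 and 896.5 in the aggressive arrays. Group means were 1704 ± 338 and 916.5 ± 191 (SD, n = 3 each), and no array of one group reached the other. The log2 difference was 0.90 (95% interval 0.33 to 1.47, adjusted p = 0.212, limma), and 1.19 against aggressive array 2 alone. The adjusted p was 0.00563 under the trend setting and 0.0193 without dim rows, in a range of 0.00563 to 0.532.

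Sult1c2, a cytosolic sulfotransferase, measured 1077, 1300 and 1191 in the limited arrays, against 541, 662 and 932 in the aggressive arrays. Its log2 difference was 0.77 (95% interval 0.20 to 1.35, adjusted p = 0.269, limma), with adjusted p values of 0.0250 and 0.0415 under the same 2 settings, in a range of 0.0250 to 0.579. Sult1b1, which sulfates thyroid hormones, differed by 0.38 (95% interval -0.12 to 0.88). Its limited arrays lay closely together, at 1617, 1715 and 1675, while aggressive array 3 reached 1646 and arrays 1 and 2 had 1134 and 1124.

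The brighter Sult1 genes were nearly level between the regimens. Sult1a1, the main phenol sulfotransferase, averaged 8811 ± 915 under limited and 8301 ± 445 under aggressive resuscitation (SD, n = 3 each), a log2 difference of 0.08 (95% interval -0.34 to 0.51). Sult1c3, a hydroxyarylamine sulfotransferase, differed by -0.15 (95% interval -0.56 to 0.26). Sult1e1, the estrogen sulfotransferase, measured 4246, 6150 and 3954 in the limited arrays and 5316, 4823 and 4770 in the aggressive arrays, so limited array 2 set the top of the range and the difference was -0.08.

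The remaining sulfotransferases were dim, below the median of the arrays. Sult2b1, which sulfates cholesterol and related sterols, differed by -0.58 (95% interval -1.25 to 0.10). Sult4a1, known mainly from brain, measured 21.3, 30.7 and 30.3 in the limited arrays and 67.7, 39.6 and 27.2 in the aggressive arrays, near the lowest value of the table, 13.5. Sult2a2 differed by 0.28 and Sult1c2a by 0.20. The medians were 0.14 for 6 Sult1 genes and 0.28 for 3 Sult2 genes. The Sult2 median was 0.78 against aggressive array 2 alone.

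Several of the glutathione S-transferases were bright and differed little. The alpha-class genes Gsta1, Gsta2, Gsta3, Gsta5 and Gsta6, which conjugate electrophiles and bind bilirubin and bile acids, differed between -0.24 (Gsta2) and 0.25 (Gsta6), with a class median of 0.02. Gsta1 measured 18321, 17276 and 19051 in the limited arrays, against 16752, 16390 and 15651 in the aggressive arrays. These groups did not overlap, although the log2 difference was only 0.16 (95% interval -0.23 to 0.56). In the mu class, Gstm1 and Gstm2 differed by -0.09 and 0.09. Gstm2 averaged 19911 ± 1282 under limited and 18746 ± 295 under aggressive resuscitation (SD, n = 3 each), and its highest array was 1.14-fold its lowest.

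Gstm4, a dimmer mu-class gene, measured 895, 710 and 689 in the limited arrays, against 571, 413 and 572 in the aggressive arrays. The log2 difference was 0.57 (95% interval 0.05 to 1.08, adjusted p = 0.347, limma), and 0.88 against aggressive array 2 alone. Gstm3, in the same gene cluster, had the opposite sign, at -0.43 (95% interval -1.03 to 0.18). Gstm5 and Gstm7 both differed by 0.21, with overlapping groups. Genes of the mu class are close paralogs, and shared binding of probes was not tested.

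Of the theta class, Gstt2 measured 275, 448 and 425 in the limited arrays and 249, 165 and 236 in the aggressive arrays. Limited array 1 lay nearest to the aggressive arrays. The log2 difference was 0.81 (95% interval 0.17 to 1.45, adjusted p = 0.293, limma), and without dim rows the adjusted p was 0.0480, in a range of 0.0480 to 0.568. Gstt1 differed by 0.16, at 3288 ± 139 under limited and 2960 ± 324 under aggressive resuscitation (SD, n = 3 each).

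Both omega-class genes, which lie next to each other on the chromosome and whose products reduce dehydroascorbate, were lower under limited resuscitation. Gsto1 measured 3078, 2875 and 3714 in the limited arrays, against 4336, 4200 and 5001 in the aggressive arrays. Gsto2 measured 113, 81.5 and 81.6 in the limited arrays, against 150, 167 and 146 in the aggressive arrays. The log2 differences were -0.49 (95% interval -0.94 to -0.04, adjusted p = 0.351, limma) for Gsto1 and -0.76 (95% interval -1.25 to -0.28, adjusted p = 0.212, limma) for Gsto2. In both, aggressive array 2 was above all limited arrays, and the differences against it alone were -0.39 and -0.88. Gsto2 was dim, and the arrays do not give a signal over background.

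The pi, kappa and microsomal transferases differed little. Gstp1, which is low in normal rat hepatocytes and high in bile duct cells, differed by -0.04 (95% interval -0.47 to 0.39). Gstk1, a mitochondrial and peroxisomal transferase, differed by 0.14. Mgst1, a membrane-bound transferase of the endoplasmic reticulum and mitochondria, measured 23238, 33917 and 29856 in the limited arrays and 35333, 29646 and 28571 in the aggressive arrays, and its limited array 1 was the lowest of all 6. The median of the 17 cytosolic and kappa Gst genes was 0.09, with 10 above and 7 below 0.

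The epoxide hydrolases and N-acetyltransferases held 0 members with an unadjusted p under 0.05. Ephx1, the microsomal epoxide hydrolase, was the brightest of the 46 on the mean, within the top 0.491% of rows, and measured 35546, 32986 and 31398 in the limited arrays, against 30540, 27573 and 26014 in the aggressive arrays. The groups did not overlap, with a log2 difference of 0.25 (95% interval -0.16 to 0.66, adjusted p = 0.604, limma). Ephx2, the soluble enzyme that hydrolyses epoxy fatty acids, differed by -0.0073 (95% interval -0.62 to 0.61).

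Nat1, an arylamine N-acetyltransferase, measured 512, 538 and 527 in the limited arrays, against 732, 738 and 554 in the aggressive arrays, without overlap, for a log2 difference of -0.35 (95% interval -0.80 to 0.11). Nat2, the other arylamine enzyme, was dim and its values overlapped, at -0.25. Nat8, which acetylates cysteine conjugates derived from glutathione conjugates, and its relatives Nat8b and Nat8f1 differed by 0.43, 0.30 and 0.20. Nat8 and its relatives are not arylamine enzymes and were kept because the rule goes by symbol.

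Differences were then set against brightness. Of 9 members with a mean intensity over 10000, 8 differed by between -0.24 and 0.25 on the log2 scale, and Ugt2b alone by more than 0.5. Of all 543 rows of that brightness, 5.34% differed by more than 0.5 in either direction. The median absolute log2 difference of the 9 members was 0.163, and that of the 543 rows was 0.158. Below 1000, 8 of 22 members differed by more than 0.5, against 26.2% of 14675 rows. The table gives no mark of saturation.

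**Figure D3:**
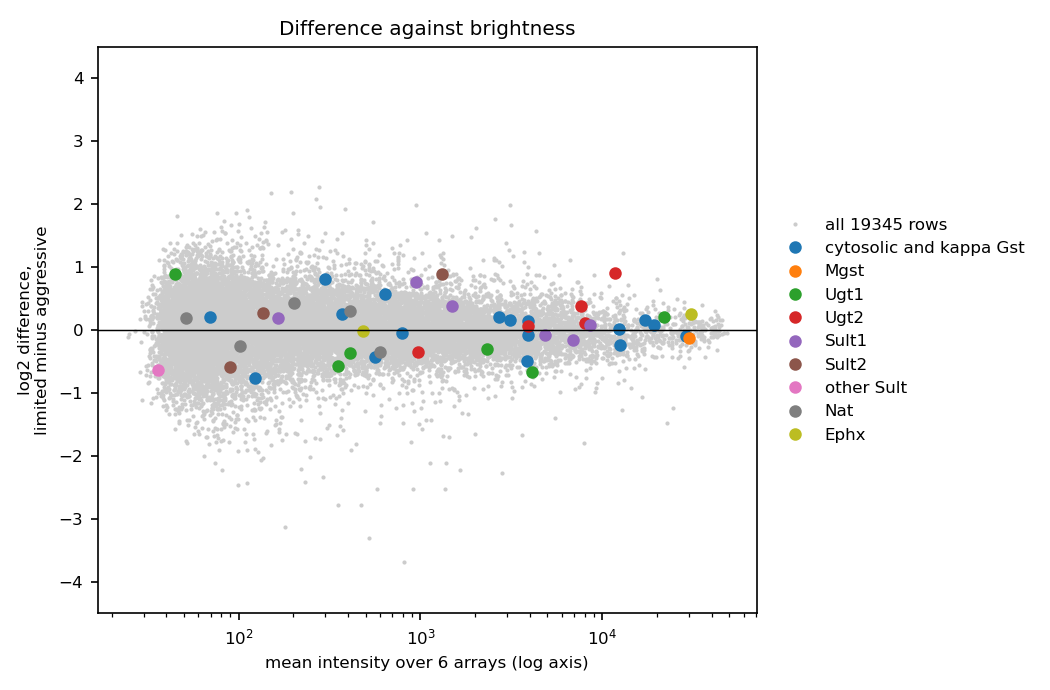
Mean intensity over 6 arrays (log x axis) against log2 difference (limited minus aggressive, y axis) for all 19345 rows in grey and the 46 members coloured by family. Above 10000 the 9 members cluster around 0 except Ugt2b at 0.91.

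Related genes outside the families were counted on lists. Of 10 measured genes on a list of other conjugation enzymes and the acyl-CoA synthetases that precede them, 5 were higher and 0 lower at an unadjusted p under 0.05, against 7.73% and 7.04% of the named genes. The 5 were the synthetases Acsm2, Acsm3 and Acsm5, the glycine conjugating enzyme Glyat and the methyltransferase Gnmt, of which Acsm3 and Gnmt are named after their values were seen. None of the 10 passed over all rows (limma), and the median was 0.50. Glyat, which conjugates acyl-CoA with glycine, measured 1912, 1817 and 1445 in the limited arrays, against 1044, 921 and 822 in the aggressive arrays, a log2 difference of 0.89 (95% interval 0.41 to 1.37, adjusted p = 0.169, limma). Acsm5, a medium-chain acyl-CoA synthetase, measured 2152, 1837 and 1513 in the limited arrays, against 554, 850 and 654 in the aggressive arrays. Its log2 difference was 1.43 (95% interval 0.87 to 1.99, adjusted p = 0.0909, limma). Acsm2, a related synthetase that supplies acyl-CoA for glycine conjugation, was dim on the mean of the arrays. It measured 339, 286 and 283 in the limited arrays, against 44.5, 75.0 and 174 in the aggressive arrays. Its log2 difference was 1.86 (95% interval 0.78 to 2.93, adjusted p = 0.187, limma).

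List medians for cofactor supply, deconjugation and transport of conjugates were near 0. The list for supply or handling of UDP-glucuronate, PAPS, glutathione or acetyl-CoA had 14 measured genes of 18. Their median was 0.06, from -1.37 to 0.59. Not all of them supply a cofactor to the members, as the list includes Ggt1 and the Golgi PAPS carriers Slc35b2 and Slc35b3. The PAPS synthases Papss1 and Papss2 were listed but not matched to a row. At an unadjusted p under 0.05, 1 was higher and 1 lower, against 7.73% and 7.04% of the named genes. Slc35b3, a Golgi carrier of PAPS, was dim, at 74.1, 54.4 and 87.8 in the limited arrays and 131, 190 and 248 in the aggressive arrays, a difference of -1.37 (adjusted p = 0.157, limma). Slc26a1, a sulfate transporter, differed by 0.59 (adjusted p = 0.370, limma) with overlapping groups. The 12 enzymes listed for deconjugation had a median of -0.0071 and 0 members at an unadjusted p under 0.05. That list is broader than removal of conjugates, as it includes the carboxylesterases Ces1c, Ces1d, Ces1e and Ces2c. The 11 transporters listed for export of conjugates had a median of -0.01, with 1 higher and 1 lower at that p, against the same background. They include the uptake carriers Slco1a1, Slco1a4 and Slco1b2, which differed by -0.11, -0.21 and -0.35. Of the 11, Abcg2, which exports sulfate conjugates, differed by 1.27 (adjusted p = 0.192, limma) and was dim. Abcb1b, a drug efflux pump, differed by -0.84 (adjusted p = 0.227, limma).

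Of 23 measured regulators of these enzymes, 8 were higher and 1 lower at an unadjusted p under 0.05, against 7.73% and 7.04% of the named genes, with a median of 0.31 and 0 passing over all rows. Nr1i3, the xenobiotic receptor CAR, measured 656, 779 and 626 in the limited arrays, against 297, 387 and 363 in the aggressive arrays, a log2 difference of 0.98 (95% interval 0.51 to 1.45, adjusted p = 0.141, limma). Rxra, its dimer partner, differed by 0.86 (adjusted p = 0.219, limma), and Cebpa, a hepatocyte transcription factor, by 1.68 (adjusted p = 0.0829, limma). Cebpb, a C/EBP factor of the acute phase, differed by -0.42 (adjusted p = 0.376, limma).

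Known targets of these regulators outside the families did not share one direction. A list of 11 targets of the aryl hydrocarbon receptor, CAR and the receptor PXR, mostly P450s, with their reductase, had 7 measured genes. Of these, 3 were lower and 0 higher at an unadjusted p under 0.05, against 7.04% and 7.73% of the named genes. The median was -0.30, and the 3 were all Cyp3a genes. Cyp1a1, which was dim, and Cyp1a2 differed by -0.13 and -0.05, with overlapping groups. The listed Cyp2b1 and Cyp2b2 were not matched to a row. Cyp3a9, a steroid hydroxylase, measured 667, 332 and 589 in the limited arrays, against 2805, 1764 and 2107 in the aggressive arrays, a log2 difference of -2.11 (95% interval -2.85 to -1.36, adjusted p = 0.0797, limma). Cyp3a18 and Cyp3a2, drug and steroid hydroxylases, differed by -0.74 and -0.44. Of 16 Nrf2 targets, 2 were higher and 1 lower at that p, a share near the same background, with a median of 0.03. Nqo1, a quinone reductase, differed by 0.45 (adjusted p = 0.366, limma), Srxn1, sulfiredoxin, by 1.32 at very low intensity (adjusted p = 0.212, limma), and Me1, malic enzyme, by -0.54 (adjusted p = 0.329, limma).

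**Figure D4:**
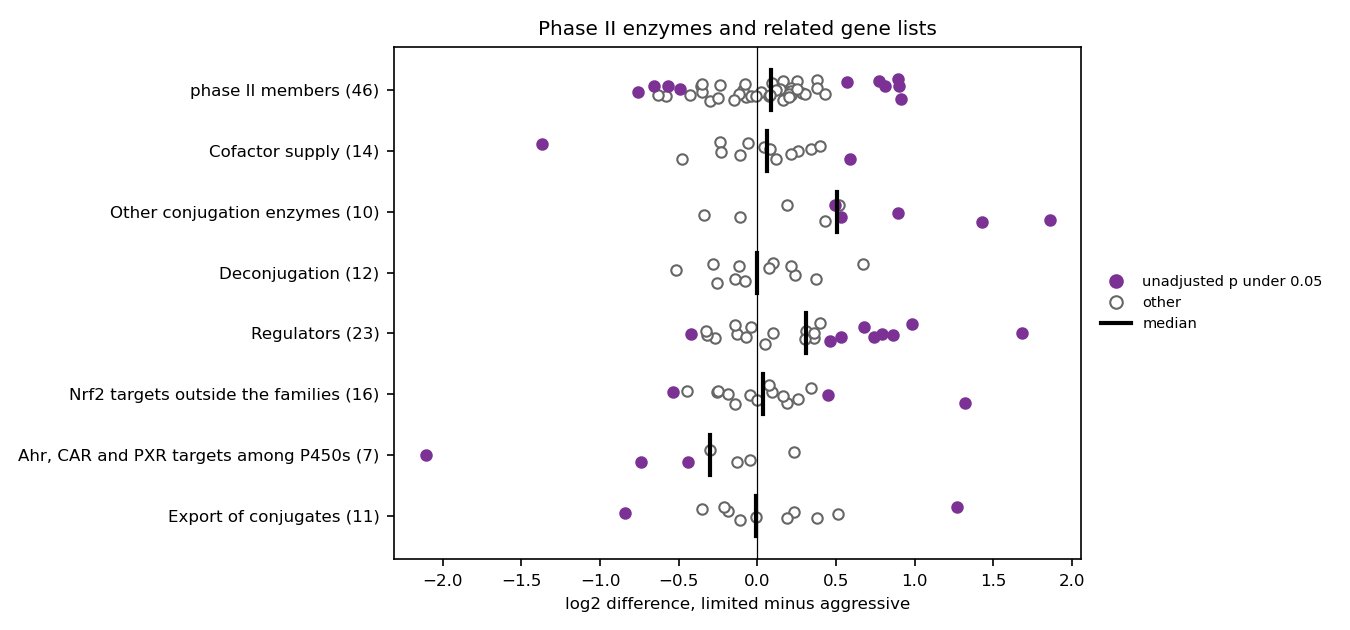
Log2 difference (limited minus aggressive, x axis) of each measured gene for the 46 members and 7 related gene lists, with the number of genes in brackets, filled points at an unadjusted p under 0.05 and a bar at the median. The medians are 0.08 for the members, 0.50 for other conjugation enzymes, 0.31 for regulators and -0.30 for the P450 targets.

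Markers of liver zones were set beside these results, since many conjugation enzymes are more abundant around the central vein. The 12 measured pericentral markers had a median of 0.14 with 0 at an unadjusted p under 0.05, and the 13 periportal markers a median of -0.0061 with 3 higher and 2 lower, against 14.8% of the named genes in either direction. Of the periportal markers Sds, serine dehydratase, passed over all rows, at -1.66 (adjusted p = 0.0482, limma). Cholangiocyte markers, with a median of 0.10 over 6 genes, held 0 at an unadjusted p under 0.05. The part of zonation, macrophage content or lung transcripts in the members' differences was not tested.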

How the data were processed

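Liver RNA of 6 rats was measured on 1-colour Cy3 NimbleGen arrays, per the labels' protocols. The authors deposited 1 linear intensity per array for 19345 RefSeq transcripts, made with RMA per the submitters' processing notes. Its version, the array build and detection limits are not stated in the labels, and Trizol and an RNeasy kit are both named for extraction. Array medians were 212 to 245, correlations between arrays were 0.965 to 0.970 inside a group and 0.955 to 0.963 across groups, and 3 arrays per group limit the precision. The labels name separate samples, with rats stated in the design text.

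Unversioned accessions were matched to a RefSeq table of GRCr8, naming 7223 rows and 7126 genes. Where several rows named a gene, the brightest on average was taken; each member had 1 row. All rows were fitted on the log2 scale with lmFit and eBayes of limma 3.58.1 (R 4.3.3). The test was two-sided, had 4 residual and 3.26 prior degrees of freedom, and was adjusted by Benjamini-Hochberg over all rows. Differences are limited minus aggressive, and SDs are of linear intensities. Same-numbered arrays did not deviate together, so the numbers do not pair them.

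Members and lists were chosen with earlier results of these data known, and the motifs after the members' values were seen. Named members are those passing, those with an unadjusted p under 0.05 (at most 14 per direction), the brightest of each family and a list of known hepatic enzymes, 30 in all, and from each related list those passing and at most 3 per direction with the smallest unadjusted p under 0.05; others are named to account for all members or as said. The alternatives were a second quantile normalisation, median centring, removal of dim rows (below the median of the row means), the mean of rows per gene, limma's array weights, a block for the replicate number, an eBayes fit with trend and robust prior, each array left out, and aggressive arrays 1 and 3 left out together. Figures were drawn with matplotlib 3.10.9.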

Additional observations from a re-analysis of the deposited data

How the results depend on the processing

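The count of members that passed over all rows was 0 under every alternative except 2, with 4 members each without dim rows (Ugt2b, Sult2a6, Sult1c2 and Gstt2) and with an intensity trend and robust prior (Ugt2b, Sult2a6, Sult1c2 and Ugt1a6); the cause was not tested. Over all rows the count of 22 became 483 and 570 under these settings and 0 without aggressive arrays 1 and 3. It was 0 to 2 when 1 array was left out. With 1 array left out the members with an unadjusted p under 0.05 numbered 3 to 8 higher and 2 to 4 lower, and without aggressive arrays 1 and 3 the lower ones numbered 2. All 10 such members kept their direction under all 14 alternatives in which they were fitted, Gsto2 and Ugt1a3 being absent without dim rows. With arrays left out or weighted this was fixed in advance, because the groups of these members did not overlap. Removal of dim rows, the replicate block, the trend setting and the mean of rows per gene leave a member's log2 difference unchanged. Only the second quantile normalisation and median centring could have turned the direction of these members.

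Replicate numbers do not pair the arrays. Same-numbered arrays correlated at -0.057, -0.052 and 0.050 in their deviations from the group means. With the replicate block 0 rows passed, against 22 without it, and 2 lower members in place of 4 had an unadjusted p under 0.05.

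Family medians moved by more than the spread between arrays for Ugt1, Sult2 and Nat. With 1 array left out they were -0.44 to -0.23 for Ugt1, 0.03 to 0.62 for Sult2 and -0.25 to 0.43 for Nat. The Sult2 median was 0.90 without dim rows, where only Sult2a6 remains, and 0.78 without aggressive arrays 1 and 3. The Nat median was 0.48 without aggressive arrays 1 and 3. The sign of the log2 difference turned with 1 array left out for 7 named members: Mgst1 (-0.24 to 0.04), Gsta3 (-0.19 to 0.08), Gstp1 (-0.11 to 0.04), Gstk1 (-0.01 to 0.27), Sult1e1 (-0.28 to 0.04), Nat2 (-0.60 to 0.13) and Ephx2 (-0.15 to 0.22, also 0.06 with array weights and 0.19 without aggressive arrays 1 and 3). For related lists, 15 of 98 medians moved by more than that spread. The 10 members at or below the array medians have no detection call.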
